A study of Glycine max with 12 samples.

Results

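The genes described here are those whose transcript level differed between 2 soybean lines in flower buds in the same direction at normal and at high temperature. The lines were the cultivar Tianlong No. 1 (TL1), a fertility restorer for cytoplasmic male sterile soybean and the control, and *GmMYB21a-OE2* (OE2 below), which was obtained from TL1 with the pTF101.1 vector carrying *GmMYB21a*. Buds were collected at the top, middle and bottom of plants kept at 28 °C by day and 22 °C by night (NT) or, from the beginning of flowering, at 40 °C by day and 34 °C by night (HT), with 3 libraries for each line and temperature, 12 libraries in all and 32058303 to 39654590 counts per library. The treatment field reads high temperature for every library, so the temperatures were taken from the library titles, which name the control WT. OE2 is a single transformed line, so an effect of the transgene and any other difference between this line and TL1 cannot be told apart. In whole buds, fewer cells of a type and less RNA per cell cannot be told apart either.

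A gene was counted as shared by both temperatures when it passed an adjusted p of 0.05 and an absolute log2 fold change of 1 for OE2 against TL1 over the 12 libraries with temperature as a covariate, and also passed an adjusted p of 0.05 with the same sign in the 6 NT libraries alone and in the 6 HT libraries alone. The NT fit and the HT fit share no library. Of 42839 genes tested, 161 (0.376%) passed over the 12 libraries, 74 (0.173%) higher and 87 (0.203%) lower in OE2, and 53 (0.124%) were shared, 27 higher and 26 lower. Of the 53, 39 carry a soybean Glyma identifier, which gives the chromosome, and the other 14 are new genes (DD_newGene) that the authors added to the annotation and that carry no position. One library stood apart from its replicates. The chi-square per degree of freedom over genes was 14.8 and 11.7 between the third OE2 library at HT and the other OE2 libraries at HT, against 2.71 to 5.09 for all other replicate pairs. Without it 53 genes were again shared, 47 of them the same. The 6 genes no longer shared were Glyma.02G213000, Glyma.05G193300, Glyma.07G200600, Glyma.08G317626, Glyma.14G074000 and Glyma.20G189600. The files hold no gene names. Annotation text in the study's supplementary table covered 20 of the 53, and the annotations below come from it, with the known roles added as background.

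MYB21-type proteins are R2R3 MYB transcription factors, which bind DNA through a pair of MYB repeats. In *Arabidopsis thaliana*, MYB21 acts with its close relative MYB24 downstream of the hormone jasmonate in stamens, where both are needed for filament growth and pollen shedding, and MYB21 also takes part in flavonol synthesis in the flower. Jasmonate becomes active once the enzyme JAR1 joins jasmonic acid to isoleucine. The comparison asks which genes differed between the lines whether or not the buds had been heated.

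The overexpression construct was cloned with a primer pair whose gene-specific ends are shown because they span the coding sequence from its start to its stop, so that reads of the transgene and of the native gene fall on the same gene and were counted together. Both are written 5′ to 3′, and capitals mark the start codon in the forward primer and the reverse complement of the stop codon in the reverse primer.
*GmMYB21a* forward: ATGgacaaaaaaccatgcgact
*GmMYB21a* reverse: TTAatctccattgagtaattgcatagac

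*GmMYB21a* itself was taken as Glyma.19G006500 on chromosome 19, which is annotated with the snapdragon protein MYB305, and GmMYB305 is a former name of *GmMYB21a*. In RefSeq (assembly Glycine_max_v4.0) the protein record of *GmMYB21a* also belongs to a gene on chromosome 19. Levels are given as CPM, counts per 1000000 counts of the library after its size was scaled by its TMM factor. At NT the level of *GmMYB21a* was 6.39, 5.32 and 5.44 CPM in the TL1 libraries and 41.5, 38.4 and 38.6 CPM in the OE2 libraries. Heated buds had 1.12, 0.810 and 0.894 CPM in TL1 and 11.4, 11.5 and 10.3 CPM in OE2. The lines did not overlap at either temperature, and the lowest OE2 library at HT was above the highest TL1 library at NT. The log2 fold change was 3.05 (SE 0.116) over the 12 libraries (adjusted p = 9.48e-11), 2.78 (SE 0.0829) at NT and 3.6 (SE 0.163) at HT.

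Most of the genes called at 1 temperature were not shared. At NT, 392 of 41292 genes (0.949%) passed both thresholds, 99 (0.24%) higher and 293 (0.71%) lower in OE2, and at HT 996 of 41260 (2.41%) passed, 800 (1.94%) higher and 196 (0.475%) lower. Without the third OE2 library at HT, 1088 passed there, 855 higher and 233 lower. Of the 297 genes called at NT that could be tested at HT too, 130 had the same sign at HT (43.8%), and of the 915 called at HT, 389 had the same sign at NT (42.5%). Over all 39985 genes tested at both temperatures the signs were the same in 50.9%. Split by direction, genes lower in OE2 at HT had the same sign at NT in 135 of 177 cases (76.3%), whereas genes higher in OE2 at HT did so in 254 of 738 (34.4%). For genes called at NT the order was the reverse, with the same sign at HT in 84 of 219 lower genes (38.4%) and in 46 of 78 higher genes (59.0%).

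Among the 161 genes called over the 12 libraries, 48 passed the adjusted p at NT but not at HT and 50 at HT but not at NT. A further 10 passed at neither, and no gene passed at both temperatures in opposite directions. These counts include 17 genes that were too low to test at NT and 32 too low to test at HT. Without the fold threshold 500 genes (1.17%) were shared, 302 higher and 198 lower, and the 447 of them below the threshold had a median absolute log2 fold change of 0.419. The members just inside the threshold were Glyma.20G189600 (1.02), Glyma.01G046300 (1.05) and Glyma.02G016700 (-1.06), and those just outside were Glyma.11G049100 (-0.99), Glyma.11G256700 (-0.99) and Glyma.10G009000 (-1.0).

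**Figure D1:**
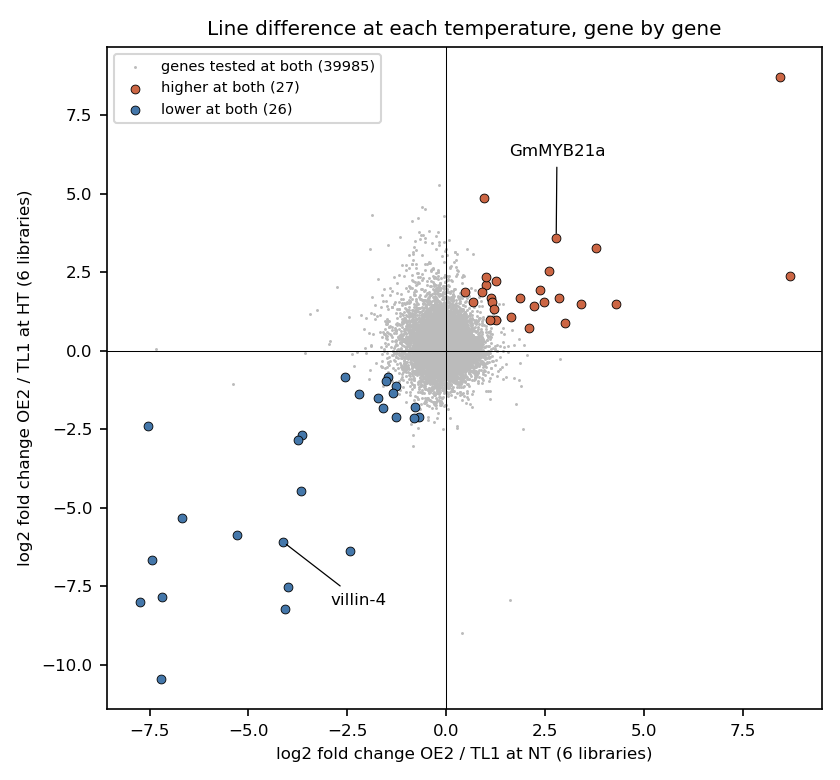
Log2 fold change of OE2 against TL1 at NT (horizontal axis) and at HT (vertical axis), 1 point for each of the 39985 genes tested at both. The 27 shared genes higher in OE2 lie in the upper right and the 26 lower in the lower left. The lower set reaches the larger absolute values at HT but not at NT.

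With new genes included, the median fitted change was larger for the lower genes than for the higher ones. Over the 12 libraries the median log2 fold change was 1.56 for the 27 higher genes and -3.0 for the 26 lower genes, against -0.02 over all genes tested. Of the 53, 3 had no count in any library of one line, and with these at their lower bound the medians were 1.56 and -2.92. Other genes with very few counts in one line kept their fitted values. Of the 9 lower new genes, 5 had OE2 means under 0.1 CPM at both temperatures, so their fold changes are poorly fixed. These new genes weigh on the median of the lower set. The medians of the Glyma genes alone were not compared, so the gap is not read as a trait of those genes. With the fold threshold set in each of the fits by temperature too, 39 remained. The lines did not overlap at either temperature for any of the 53, a property of 4.68% of all genes tested that the selection itself favours.

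**Figure D2:**
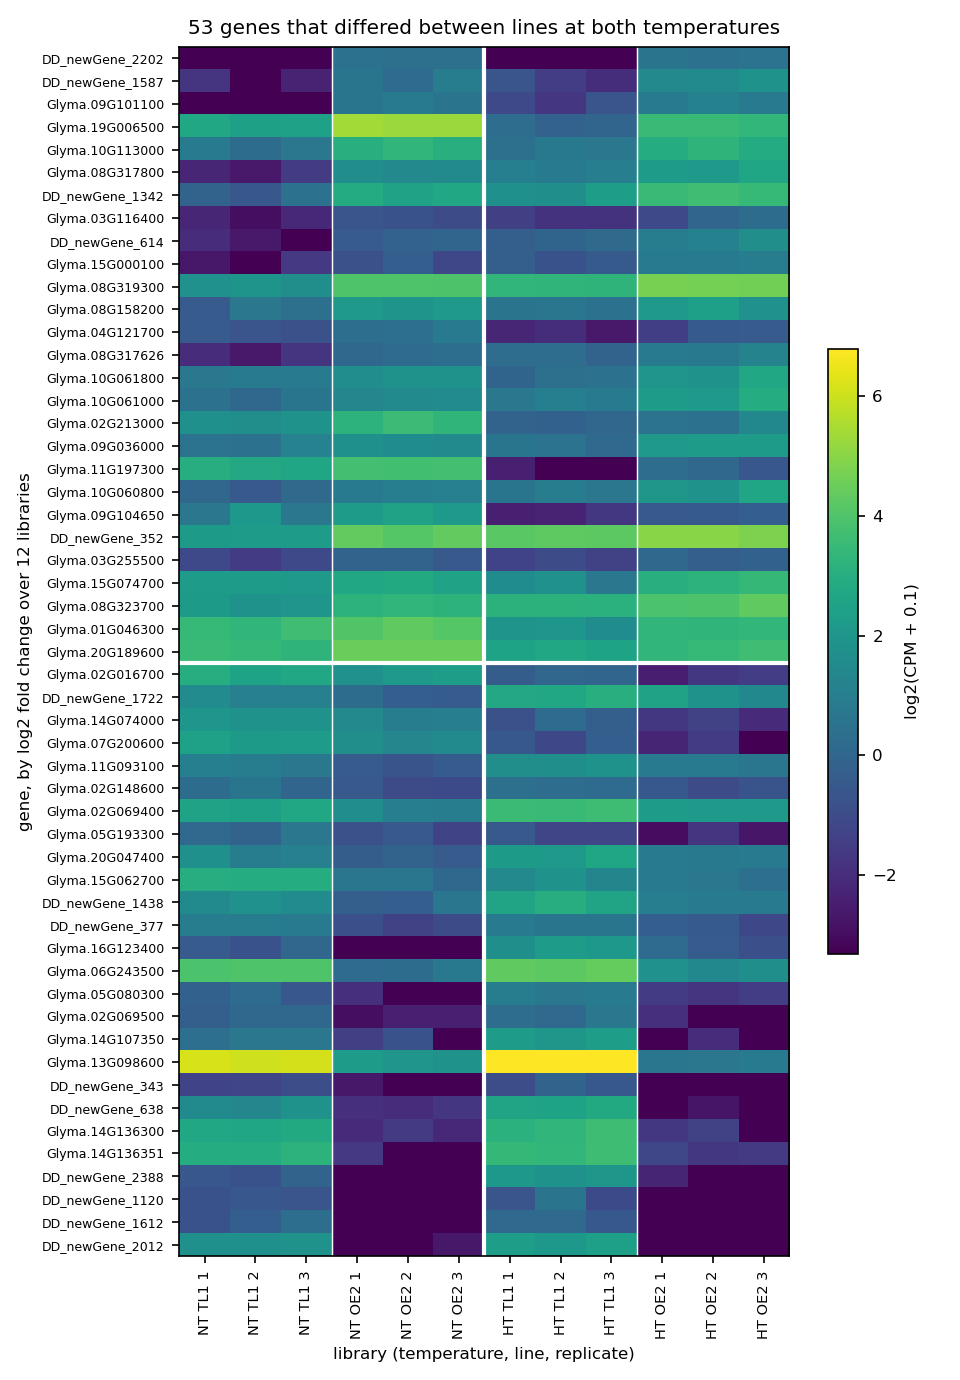
Level of the 53 shared genes (rows, ordered by log2 fold change over the 12 libraries) in each library (columns), as log2 of CPM plus 0.1. The TL1 columns are darkest for the genes at the top and the OE2 columns for those at the bottom, at both temperatures, and the horizontal white line separates the 27 higher from the 26 lower genes.

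Another MYB gene and a jasmonate enzyme were lower in OE2 at both temperatures. Glyma.20G047400, annotated as MYB63, an activator of lignin synthesis genes in *A. thaliana*, was at 3.24, 1.83 and 2.03 CPM in TL1 and 0.699, 0.832 and 0.641 CPM in OE2 at NT. The HT levels were 4.51, 4.28 and 6.11 CPM in TL1 and 1.69, 1.6 and 1.74 CPM in OE2. All OE2 libraries were below all TL1 libraries of the same temperature, with a log2 fold change of -1.62 (SE 0.166, adjusted p = 2.67e-05). Glyma.06G243500, annotated as a jasmonic acid-amido synthetase of the JAR1 type, was at 15.1, 16.1 and 16 CPM in TL1 and 1.06, 1.09 and 1.6 CPM in OE2 at NT. In heated buds it was at 19.9, 19 and 20.8 CPM in TL1 and 3.32, 2.5 and 3.18 CPM in OE2. Its log2 fold change was -3.65 (SE 0.139) at NT and -2.68 (SE 0.123) at HT, with an adjusted p of 4.52e-10 over the 12 libraries, and the HT level in OE2 stayed below the NT level in TL1.

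The lower gene with the most reads was a cytoskeletal gene. Glyma.13G098600, annotated as villin-4, a protein family that bundles actin filaments, was at 73.2, 67.4 and 71.2 CPM in TL1 and 4.72, 3.82 and 3.61 CPM in OE2 at NT. Heated buds had 109, 111 and 109.7 CPM in TL1 and 1.45, 1.5 and 1.72 CPM in OE2. The mean rose with heat in TL1, from 70.6 ± 2.90 to 109.8 ± 0.733 CPM (SD, n = 3), and was lower at HT than at NT in OE2, at 1.56 ± 0.140 against 4.05 ± 0.592 CPM. The log2 fold change between lines was -4.12 (SE 0.0828) at NT and -6.09 (SE 0.0936) at HT, and the counts behind it were 2245 to 4370 in TL1 and 55 to 169 in OE2.

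Lower new genes with an annotation included an enzyme of sugar metabolism and a transporter match. DD_newGene_2388, annotated as a cytoplasmic phosphoglucomutase, which interconverts glucose 1-phosphate and glucose 6-phosphate, had no count in OE2 at NT and 0.106, 0 and 0 CPM at HT. In TL1 it was at 0.563, 0.481 and 0.844 CPM at NT and 4.11, 3.59 and 3.99 CPM at HT. With the OE2 libraries at a floor of 3 counts each, it was at least 7-fold lower in OE2 at NT. DD_newGene_638 had its best annotation match in ABC transporter I family member 10. It was at 2.76, 2.49 and 3.56 CPM in TL1 and 0.168, 0.143 and 0.204 CPM in OE2 at NT, and at 5.82, 5.77 and 7 CPM in TL1 at HT, where the OE2 libraries held 0, 0.0477 and 0 CPM.

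A neighbouring pair on chromosome 14 was nearly without reads in OE2. Glyma.14G136351, annotated as coiled-coil domain-containing protein 72, whose yeast relative is associated with ribosomes, was at 7.54, 7.63 and 9.22 CPM in TL1 and 0.224, 0 and 0 CPM in OE2 at NT. At HT it was at 10.4, 10.3 and 12.5 CPM in TL1 and 0.343, 0.215 and 0.230 CPM in OE2. The RefSeq gene tied to this annotation lies on chromosome 8, so the identity of Glyma.14G136351 is uncertain. The gene next to it among the tested genes, Glyma.14G136300, had no annotation here and behaved alike, with 6.44, 6.01 and 6.88 CPM in TL1 against 0.140, 0.230 and 0.116 CPM in OE2 at NT, and 8.70, 9.97 and 12.3 CPM against 0.211, 0.286 and 0 CPM at HT. The log2 fold changes over the 12 libraries were -5.80 (SE 0.266) and -5.64 (SE 0.259). Whether reads of overlapping or antisense transcripts are shared by such a pair cannot be told, because the strand setting of the counting is not given in the sources used here.

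**Figure D3:**
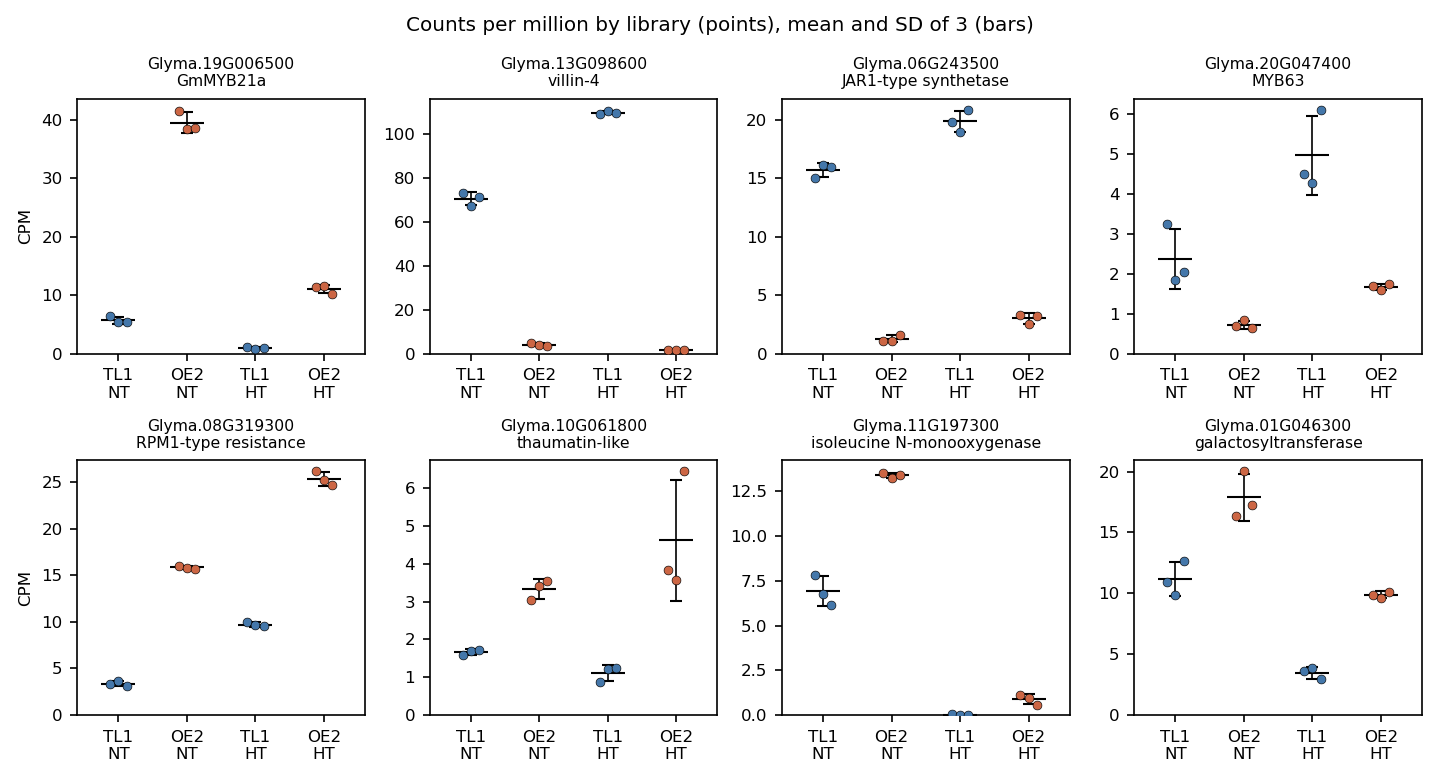
CPM of 8 annotated shared genes in each library (points), with the mean and SD of 3 libraries (bars), by line and temperature on the horizontal axis and from 0 on each vertical axis. Villin-4 sits between 67.4 and 111 CPM in TL1 and at or below 4.72 CPM in OE2, and *GmMYB21a* is higher in OE2 than in TL1 at both temperatures.

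Annotated genes that were higher in OE2 at both temperatures included defence proteins. Glyma.08G319300 is annotated as disease resistance protein RPM1, an intracellular immune receptor that senses bacterial effectors in *A. thaliana*. It was at 3.38, 3.64 and 3.13 CPM in TL1 and 16, 15.8 and 15.7 CPM in OE2 at NT, and at 10.02, 9.62 and 9.50 CPM in TL1 and 26.2, 25.2 and 24.7 CPM in OE2 at HT. The spread within each group was under 1 CPM (the largest SD was 0.747), and even at NT every OE2 library was above every heated TL1 library. The log2 fold change was 2.22 (SE 0.106) at NT and 1.43 (SE 0.0854) at HT, with an adjusted p of 1.06e-07 over the 12 libraries.

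A group of 3 thaumatin-like genes on chromosome 10, members of a family of pathogenesis-related proteins, was higher as well. Glyma.10G061800 was at 1.58, 1.68 and 1.72 CPM in TL1 and 3.05, 3.42 and 3.55 CPM in OE2 at NT, and at 0.868, 1.21 and 1.25 CPM in TL1 and 3.83, 3.58 and 6.45 CPM in OE2 at HT. Glyma.10G061000 ranged from 0.961 to 1.41 CPM in TL1 and from 2.46 to 2.82 CPM in OE2 at NT, and from 1.54 to 1.97 CPM and from 4.17 to 7.66 CPM at HT. Glyma.10G060800 ranged from 0.601 to 1.03 CPM and from 1.73 to 2.01 CPM at NT, and from 1.43 to 1.82 CPM and from 3.48 to 6.22 CPM at HT. In all of them the third OE2 library at HT, the one that stood apart, was the highest of the 12. The log2 fold changes at HT were 2.09, 1.69 and 1.56 with it and 1.78, 1.38 and 1.27 without it (adjusted p from 2.03e-06 to 9.76e-05), in the order given. The 3 genes share the best annotation match, thaumatin-like protein 1a, so reads may have been divided among close copies and they are uncertain as separate genes.

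An aspartyl protease, annotated as AED3 and known in *A. thaliana* as a protein of the cell exterior linked to systemic immunity, passed more narrowly at HT than at NT. Glyma.02G213000 was at 3.26, 3.09 and 3.59 CPM in TL1 and 9.31, 12.1 and 9.67 CPM in OE2 at NT, and at 0.840, 0.784 and 0.924 CPM in TL1 and 1.35, 1.29 and 2.54 CPM in OE2 at HT. The adjusted p was 7.22e-09 at NT and 0.0385 at HT. It was no longer shared when any 1 TL1 library at HT was left out, nor without the third OE2 library at HT (log2 fold change at HT 1.06 with it and 0.68 without it, adjusted p = 0.167).

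Genes of specialised metabolism were also among the annotated higher genes. Glyma.11G197300 is annotated as isoleucine N-monooxygenase, an enzyme type that in *Lotus japonicus* starts the synthesis of cyanogenic glucosides from isoleucine and valine. Another annotation source names phenylalanine N-monooxygenase for this gene, so its substrate is uncertain. It was at 7.82, 6.79 and 6.16 CPM in TL1 and 13.6, 13.2 and 13.4 CPM in OE2 at NT. At HT it held 3, 0 and 0 counts in TL1 and 42, 40 and 22 counts in OE2, so that both lines had less at HT and the lines still did not overlap. Glyma.01G046300, annotated as a soyasapogenol B glucuronide galactosyltransferase, which adds a sugar in the synthesis of soyasaponins, was at 10.9, 9.88 and 12.7 CPM in TL1 and 16.4, 20.1 and 17.2 CPM in OE2 at NT. The HT levels were 3.64, 3.85 and 2.92 CPM in TL1 and 9.90, 9.59 and 10.1 CPM in OE2. Its log2 fold change was 1.05 (SE 0.130, adjusted p = 0.000212) and fell to 0.96, below the threshold, without TL1 replicate 3 at HT.

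Glyma.09G036000, annotated as aldehyde dehydrogenase 22A1, which oxidises aldehydes to acids, ranged from 1.29 to 2.13 CPM in TL1 and from 2.68 to 3.30 CPM in OE2 at NT. At HT it ranged from 0.983 to 1.43 CPM in TL1 and from 4.17 to 4.71 CPM in OE2. It was not shared when TL1 replicate 1 at NT was left out. Glyma.08G158200, annotated only as a hypothetical protein, ranged from 0.647 to 1.5 CPM in TL1 over both temperatures and from 3.35 to 5.18 CPM in OE2. DD_newGene_614, annotated as a transposase, the enzyme that moves DNA transposons, was at 0.141, 0.0601 and 0 CPM in TL1 and 0.643, 0.804 and 0.873 CPM in OE2 at NT. Heated buds had 0.728, 0.860 and 1.01 CPM in TL1 and 1.82, 2.1 and 3.12 CPM in OE2.

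New genes of the authors' assembly were frequent among the 53. They made up 14 of the 53 shared genes (26.4%) and 1.92% of all genes tested, and 1.7% of the new genes tested were shared against 0.0928% of the Glyma genes tested. The reads used for the assembly are not given in the sources used here. If they came from these libraries, a locus read in 1 line only could enter the table through that line alone. Nothing about the lines is therefore read from this excess. Of the 14, 9 were lower and 5 higher in OE2. Among the new genes, 2 had reads in 1 line only, taken as at least 20 counts in each library of that line and at most 3 in each library of the other.

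DD_newGene_2202 had 47, 43 and 42 counts in OE2 at NT and 53, 55 and 53 counts in OE2 at HT, and no count in any TL1 library. With the TL1 libraries at a floor of 3 counts each and libraries scaled for size, it was at least 14.05-fold higher in OE2 at NT. At HT it was at least 16.3-fold higher. One annotation match was polyadenylation and cleavage factor homolog 4, an RNA-processing protein that promotes flowering in *A. thaliana*. Another was the hypothetical protein of a known soybean gene, GLYMA_10G251200, and no protein domain was listed. Whether DD_newGene_2202 is a part or a copy of that gene was not tested. DD_newGene_2012, without annotation here, was the opposite case, with 115, 109 and 111 counts in TL1 at NT and 178, 161 and 171 at HT. Its OE2 libraries held 0, 0 and 2 counts at NT and none at HT, which made it at least 56.7-fold lower in OE2 at HT.

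Besides DD_newGene_638 and DD_newGene_2388, described above, other new genes were near 0 in OE2. DD_newGene_1612 held no count in OE2 and 17 to 37 counts in TL1 at NT and 20 to 39 at HT, at least 8.67-fold and 10.6-fold lower in OE2. DD_newGene_1120 held none in OE2 and 17 to 19 counts in TL1 at NT and 13 to 54 at HT, at least 5.89-fold and 9.56-fold lower. DD_newGene_343 was at 0.309 to 0.438 CPM in TL1 at NT, where 1 of 3 OE2 libraries had any count (0.0559 CPM), and at least 7.56-fold lower in OE2 at HT. The remaining lower new genes kept measurable levels in OE2. DD_newGene_1438, annotated as the glycine-rich protein DOT1, had means of 2.97 CPM in TL1 and 0.976 CPM in OE2 at NT and of 6.57 and 1.80 CPM at HT. The log2 fold changes of DD_newGene_377 and DD_newGene_1722 were -1.79 and -1.11.

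Among the higher new genes, DD_newGene_1587 was at 0.197, 0 and 0.0938 CPM in TL1 and 1.43, 1.06 and 1.78 CPM in OE2 at NT, with 0.532, 0.253 and 0.149 CPM against 2.61, 2.67 and 3.56 CPM at HT. DD_newGene_1342 was at 0.844, 0.571 and 1.25 CPM in TL1 and 7.27, 5.57 and 6.38 CPM in OE2 at NT, and at 3.25, 3.21 and 4.92 CPM and 11.3, 13 and 10.8 CPM at HT. DD_newGene_352 was at 4.45, 4.57 and 4.56 CPM in TL1 and 20.3, 17.4 and 20.5 CPM in OE2 at NT, and at 18.5, 19.3 and 19 CPM and 31.5, 31.8 and 27.5 CPM at HT. The range in heated TL1 lay within that in unheated OE2.

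Several Glyma genes had no annotation here. Glyma.10G113000 was at 1.63, 1.08 and 1.5 CPM in TL1 and 8.02, 9.90 and 7.95 CPM in OE2 at NT, and at 1.23, 1.59 and 1.49 CPM and 7.55, 9.49 and 7.37 CPM at HT, so that neither line differed between temperatures by more than its own spread. Glyma.09G101100 had no count in TL1 at NT and 1.43, 1.66 and 1.40 CPM in OE2, which was at least 16.7-fold higher with libraries scaled for size. At HT it was at 0.364, 0.202 and 0.536 CPM in TL1 and 1.77, 2.05 and 1.64 CPM in OE2. Glyma.14G107350 was the reverse, at 1.18, 1.5 and 1.5 CPM in TL1 and 0.279, 0.488 and 0 CPM in OE2 at NT, and at 4.70, 4.02 and 5.01 CPM and 0, 0.143 and 0 CPM at HT.

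Glyma.16G123400 had no count in OE2 at NT against 0.647, 0.481 and 0.907 CPM in TL1, at least 7.56-fold lower, and was at 3.16, 4.63 and 4.11 CPM in TL1 and 1.06, 0.668 and 0.461 CPM in OE2 at HT. Glyma.15G062700 ranged from 7.51 to 7.74 CPM in TL1 and from 0.932 to 1.48 CPM in OE2 at NT, and from 2.41 to 3.42 CPM and from 1.2 to 1.74 CPM at HT. It was not shared without TL1 replicate 1, TL1 replicate 2 or OE2 replicate 2 at HT. Glyma.05G080300 ranged from 0.563 to 1.79 CPM in TL1 and reached at most 0.256 CPM in OE2. The low values of these genes rest on few reads, since 1 count corresponded to 0.0239 to 0.0313 CPM.

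There were 14 other unannotated Glyma genes away from the neighbouring groups. Those higher in OE2 were Glyma.03G116400 (log2 fold change 2.07), Glyma.15G000100 (1.79), Glyma.04G121700 (1.59), Glyma.09G104650 (1.32), Glyma.03G255500 (1.25), Glyma.15G074700 (1.13), Glyma.08G323700 (1.07) and Glyma.20G189600 (1.02). Those lower were Glyma.05G193300 (-1.58), Glyma.02G148600 (-1.23), Glyma.11G093100 (-1.22), Glyma.07G200600 (-1.13), Glyma.14G074000 (-1.12) and Glyma.02G016700 (-1.06). Several of them depended on single libraries. Glyma.03G255500 was lost in 15 of 17 alternative fits, Glyma.07G200600 and Glyma.05G193300 in 11 each and Glyma.02G148600 in 9, whereas 33 of the 53 shared genes were lost in none of them. The 33 include DD_newGene_1120, DD_newGene_1612 and DD_newGene_343, which had no adjusted p in DESeq2. A missing adjusted p was not counted as a loss.

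The size of the line difference depended on temperature for 19 of the 53 shared genes, by the test of the line by temperature interaction over the 12 libraries, which passed for 12.4% of all genes tested. Without the third OE2 library at HT, an alternative chosen after seeing the data, the interaction passed for 21 of the 53. With all 12 libraries the difference was larger at HT for 10 and larger at NT for 9. *GmMYB21a* (interaction 0.77 on the log2 scale, SE 0.175, adjusted p = 0.00587) and villin-4 (-2.02, SE 0.139, adjusted p = 3.28e-09) were further apart between lines at HT. The RPM1-type gene Glyma.08G319300 (-0.84, SE 0.122, adjusted p = 8.74e-05), the JAR1-type gene Glyma.06G243500 (0.92, SE 0.195, adjusted p = 0.00333) and DD_newGene_352 (-1.43, SE 0.125, adjusted p = 1.21e-07) were further apart at NT. For the remaining 34 the test did not pass, which does not show that the difference was equal.

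Without a fold threshold, opposite directions at the 2 temperatures were about as frequent as the same direction. Of 1029 genes with an adjusted p under 0.05 at both temperatures (10.8% of genes passed at NT and 11.1% at HT), 507 had the same sign and 522 opposite signs. Glyma.12G007000 was at 4.39, 3.39 and 4.34 CPM in TL1 and 1.12, 1.41 and 0.757 CPM in OE2 at NT, and at 1.34, 1.39 and 1.34 CPM in TL1 and 4.27, 4.65 and 4.07 CPM in OE2 at HT. Glyma.05G065700 had the other order, with 1.46, 1.89 and 1.19 CPM in TL1 against 5.37, 5.14 and 6.99 CPM in OE2 at NT, and 0.840, 1.42 and 1.13 CPM against 0.211, 0.262 and 0.102 CPM at HT. DD_newGene_738, Glyma.19G174200 and Glyma.11G230400 were lower in OE2 at NT and higher at HT, with log2 fold changes of -1.92 and 3.25, of -1.88 and 4.33 and of -1.73 and 2.28. None of these 5 genes passed the line test over the 12 libraries (adjusted p from 0.508 to 0.970).

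The shared genes were spread over the genome. The 39 with a chromosome number lay on 17 of 20 chromosomes, with none on chromosomes 12, 17 and 18, and the percent of tested genes that were shared ranged from 0 to 0.242% by chromosome. On chromosome 8 all 5 shared genes were higher in OE2 and on chromosome 10 all 4, while on chromosome 14 all 4 were lower and on chromosome 2 4 of 5. The number in a Glyma identifier gives the order of genes, not their distance in bases. No window of 20 consecutive tested genes held more than 3 shared genes. *GmMYB21a* was tested gene 54 of 2001 on chromosome 19 and was the only shared gene there, and none of the 40 tested genes nearest to it was called over the 12 libraries. Since 0.376% of all genes tested were called, none among 40 is near that share and nothing is read from it.

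**Figure D4:**
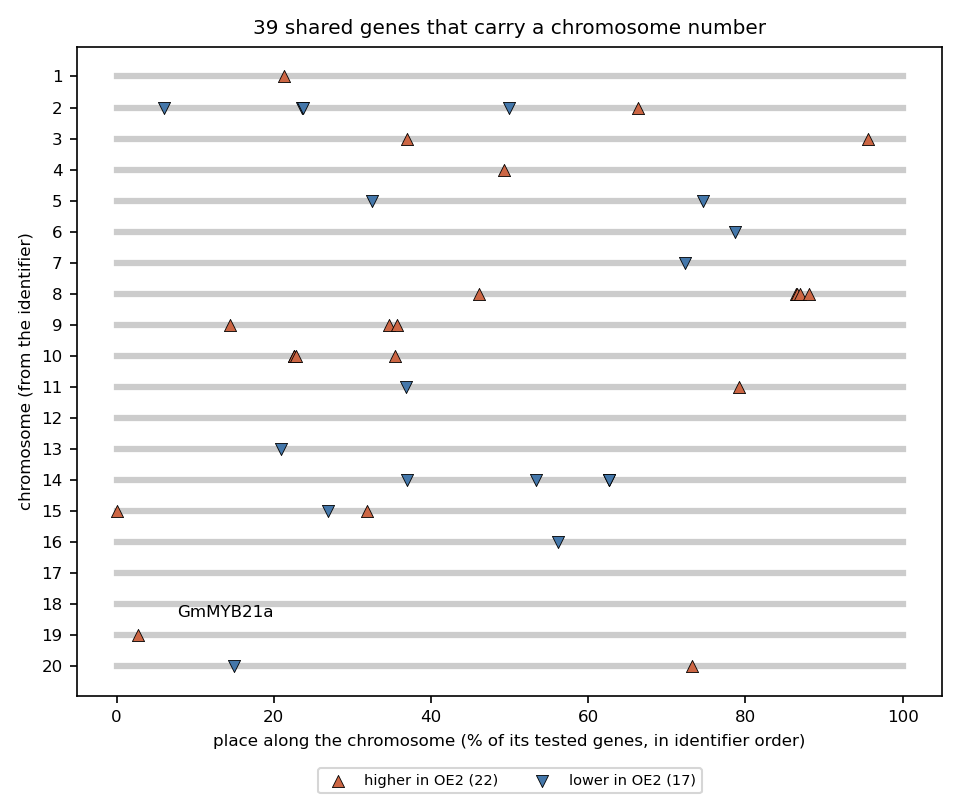
Place of the 39 shared genes with a chromosome number, as percent of the tested genes along each of 20 chromosomes (rows), with upward triangles for the 22 higher and downward triangles for the 17 lower in OE2. Most chromosomes hold scattered single genes, and close groups appear on chromosomes 2, 8, 10 and 14.

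Of the 39, 10 lay in 4 groups in which neighbours were at most 20 tested genes apart, and 29 lay alone. Of all Glyma genes tested, 0.0928% were shared. Whether the shared genes lay closer together than this share alone would give was not tested. Every group moved in one direction. The groups on chromosomes 10 and 14 were the thaumatin-like genes and the pair described above. On chromosome 2, the adjacent genes Glyma.02G069400 and Glyma.02G069500 were lower in OE2. Glyma.02G069400 ranged from 5.32 to 6.38 CPM in TL1 and from 1.86 to 3.02 CPM in OE2 at NT, and from 11 to 12.4 CPM and from 4.20 to 4.72 CPM at HT. Glyma.02G069500, for which the annotation sources disagree, ranged from 0.732 to 0.969 CPM in TL1 and reached at most 0.0873 CPM in OE2 at NT, and was at 1.12, 1.01 and 1.55 CPM against 0.158, 0 and 0 CPM at HT. Among the 40 tested genes flanking each of the chromosome 2 and 14 groups and the 43 others around the thaumatin-like genes, none passed the adjusted p with the same sign at both temperatures. Over all genes tested this share was 1.17%, so none among so few is near it and nothing is read from these counts.

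The stretch on chromosome 8 was different in that its neighbours also differed between lines, in both directions. There, 3 shared genes lay within 15 consecutive tested genes, the RPM1-type gene Glyma.08G319300 and the unannotated Glyma.08G317626 and Glyma.08G317800. Glyma.08G317800 was at 0.113, 0.0601 and 0.250 CPM in TL1 and 3.02, 2.64 and 2.80 CPM in OE2 at NT, and at 1.99, 1.70 and 1.91 CPM and 4.67, 4.34 and 6.07 CPM at HT. Glyma.08G317626 was at 0.141, 0.0601 and 0.188 CPM in TL1 and 0.978, 1.06 and 1.16 CPM in OE2 at NT, and at 1.12, 1.14 and 0.834 CPM and 1.74, 1.60 and 2.20 CPM at HT. The log2 fold change of Glyma.08G317626 at HT was 0.88 (SE 0.251, adjusted p = 0.0372), and it was not shared when any 1 of the 6 HT libraries was left out. All 3 were further apart between lines at NT than at HT.

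Between and beside these genes, 5 of the 47 other genes tested at both temperatures passed the adjusted p with the same sign at both but stayed below the fold threshold over the 12 libraries. Over all genes tested, 1.17% were shared without the fold threshold. Glyma.08G317400 and Glyma.08G318000, which flank the first pair, were lower in OE2, with log2 fold changes of -1.09 and -1.13 at NT and -0.59 and -0.58 at HT. Glyma.08G319500 was slightly lower, at -0.36 and -0.32. Glyma.08G320700 (0.45 and 0.74) and Glyma.08G321400 (0.23 and 0.99) were higher. Without the fold threshold, 6 genes from Glyma.08G317400 to Glyma.08G319500 fell in windows of 20 tested genes with at least 5 shared genes, one of 2 such regions in the genome. The other held 5 genes, from Glyma.01G062400 to Glyma.01G066300 on chromosome 1.

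**Figure D5:**
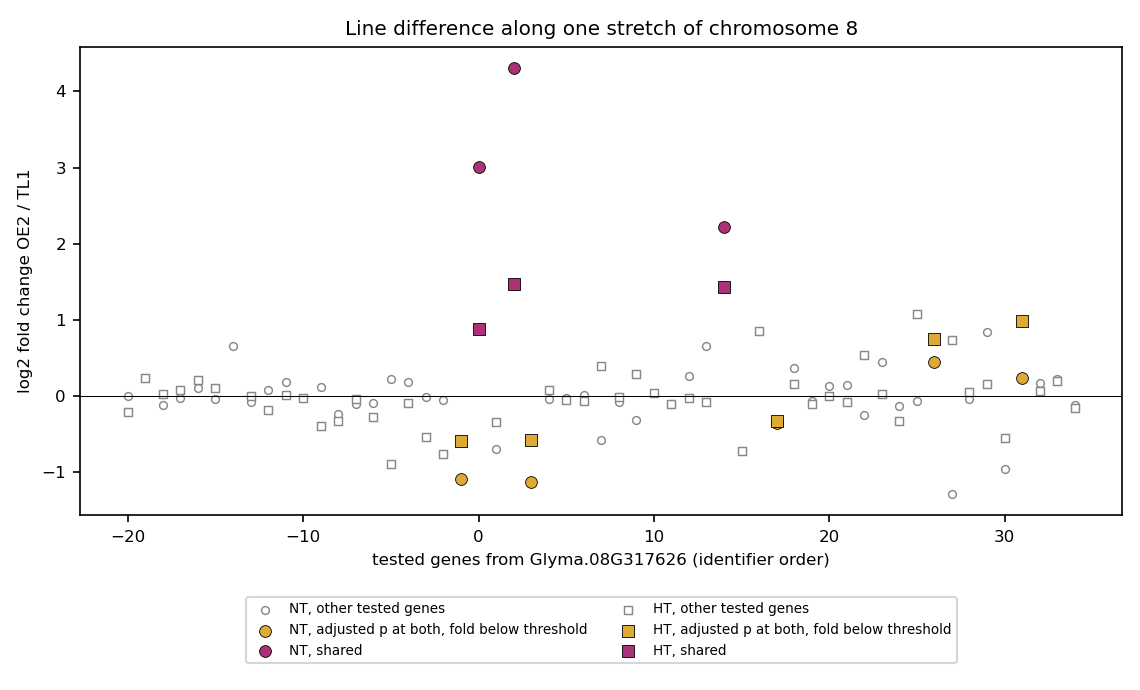
Log2 fold change of OE2 against TL1 at NT (circles) and HT (squares) along 55 consecutive tested genes on chromosome 8, with the place counted in tested genes from Glyma.08G317626. The 3 shared genes stand above 0 at both temperatures, flanked by genes with an adjusted p at both temperatures on either side of 0, while most other genes lie near 0.

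The annotation text was readable for 578 genes, all picked by the study at HT, so that their direction at HT is given by that choice and only the NT libraries are separate. Of these, 20 (3.46%) were shared. At NT, 558 of them could be tested. There 51 passed the adjusted p in the direction of HT, 105 passed in the opposite direction and 402 did not pass, where 10.8% of all genes passed at NT in either direction. All 13 WRKY factors, regulators of defence and stress genes, were higher in OE2 at HT, and 12 of them were lower at NT (median log2 fold change 1.51 at HT and -1.07 at NT). Of 15 flavonoid and phenylpropanoid genes, all higher at HT, 1 was lower and 14 did not pass at NT (median 1.81 and -0.08). Of 23 genes with U-box or other ubiquitin words, all higher at HT, 22 were tested at NT, where 1 was higher and 4 were lower.

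Against that share, the word lists held as shared genes 2 of 15 MYB genes, 4 of 32 defence and receptor genes, 1 of 33 sugar transport and glycosyl transfer genes and 1 of 14 genes with auxin words, the last being the JAR1-type gene, which belongs to the enzyme family that also conjugates auxin. None of the genes listed under flavonoids, ubiquitin ligases, AP2/ERF factors, WRKY factors, the cell wall, heat shock, the clock or pollen and anther was shared, and lists of this size hold few genes or none at that share, so nothing is read from these counts. Only 3 of the readable genes had pollen or anther words. They were picked by the study for differing at HT, so the labelled tissue could not be checked with them. At HT 2 of them were lower and 1 was higher in OE2 (median log2 fold change -1.15), and at NT 1 was lower and 2 did not pass, with log2 fold changes between -0.30 and 0.30. Whether the make-up of the buds differed between lines was not tested.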

How the data were processed

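Buds of TL1 and OE2 were sequenced in 12 libraries. The deposited table holds raw counts for 53808 genes made by the authors. The submitters' processing notes name StringTie 2.1.3b, and the aligner, counter, genome build and strand setting are not given in the sources used here. Totals were 32058303 to 39654590 counts, and intervals and floors cover counting error only. Replicates are named biological, and the p-values measure the spread between these samples. No 2 replicates agreed within sampling noise.

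Genes were filtered with filterByExpr, scaled by TMM and tested in edgeR 4.0.16 (R 4.3.3) with the quasi-likelihood F-test and Benjamini-Hochberg adjustment over all genes tested. The thresholds were an adjusted p of 0.05 and an absolute log2 fold change of 1. CPM are TMM-scaled. In simulated counts for the comparison of lines over 12 libraries (42458 genes), 200 of 200 genes changed 4-fold were called, with 3 false calls, and 197 were shared. The changed genes were drawn only from genes above a minimum level and had the same effect at both temperatures. This recovery does not describe genes with few reads, smaller folds or an effect that differs by temperature. Alternatives were DESeq2 1.42.0, RLE scaling, no filter, a replicate block, Glyma genes only, 1 joint fit, no fold threshold and leaving out each library.

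Named were *GmMYB21a*, the 10 largest shared genes per direction, genes with reads in 1 line only, genes in dense regions, word-list genes, 3 genes on either side of the threshold and 5 of opposite direction. The other shared genes were named after their values were seen. Members and lists were chosen with earlier results of these data known. The figures were drawn with matplotlib 3.10.9. Columns of fold changes and p-values in the study's tables were not used.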

Additional observations from a re-analysis of the deposited data

Results flagged for a closer look

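For 19 shared genes the line difference itself differed between temperatures, by the edgeR quasi-likelihood test of the interaction (log2, HT minus NT) with adjusted p under 0.05. Among genes higher in OE2, the interaction was 0.77 for *GmMYB21a* (Glyma.19G006500), 3.87 for Glyma.11G197300, 1.34 for Glyma.15G074700, 1.04 for Glyma.10G061800, 0.93 for Glyma.09G036000 and 0.82 for Glyma.01G046300, all further apart at HT. It was -6.44 for Glyma.09G101100, whose TL1 libraries at NT had no count, so that this value is no bound. It was -2.88 for Glyma.08G317800, -2.18 for Glyma.08G317626, -1.43 for DD_newGene_352, -1.22 for DD_newGene_1342 and -0.84 for Glyma.08G319300, all further apart at NT. Among genes lower in OE2, it was -4.19 for DD_newGene_638, -3.99 for Glyma.14G107350, -2.02 for Glyma.13G098600 and -1.46 for Glyma.02G016700, further apart at HT. It was 5.17 for Glyma.16G123400, with no count in OE2 at NT, 1.66 for Glyma.15G062700 and 0.92 for Glyma.06G243500, further apart at NT. Single values were not screened for outlying libraries, since the groups hold 3 libraries each.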

How the results depend on the processing

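Over 17 alternatives (all but the fit of Glyma genes only), a shared gene lost that status 104 times of 901, and 20 of the 53 lost it at least once. Cases with no adjusted p were not counted as lost. For the log2 fold changes over the 12 libraries alone, the fit of Glyma genes only was included. These lost the call in 19 of 935 values, and none changed sign. The joint fit could not change them, since it used the same fit for this value. Of the 53 shared genes, all stayed with RLE scaling, 47 without a filter, 48 with contrasts from 1 joint fit and 44 with DESeq2, which gave 5 of the others no adjusted p. With Glyma genes only, 17 lower genes were shared. Without the fold threshold, 1853 genes were called over 12 libraries (913 higher, 940 lower), 4472 at NT and 4567 at HT, 500 were shared (302 higher, 198 lower), and 49.6% of genes called at HT had the same sign at NT. The most shared genes in a window were then 6, in 2 dense regions, an alternative added after seeing the data. With a minimum of 10 counts, 5 genes had reads in 1 line only, and with at least 20 against 0, 1 gene.

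Leaving out 1 library gave 42 to 69 shared genes (20 to 37 higher, 21 to 32 lower, 12 to 14 new genes), the fewest without TL1 replicate 3 at HT and the most without OE2 replicate 1 at NT. The genes called over 12 libraries numbered 112 to 200, with 44 to 115 higher and 65 to 85 lower. Calls numbered 330 to 458 at NT and 775 to 1088 at HT, and the same sign shares were 41.4 to 46.9% and 38.3 to 45.4%. Without TL1 replicates 1, 2 and 3 at HT the higher calls were 49, 47 and 44, and without OE2 replicate 1 at NT 115.

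Replicate numbers did not pair the samples, since 1 of 18 same-numbered pairs had a correlation of deviations over 0.1 (range -0.135 to 0.120). With the replicate block, 49 genes were shared, 46 of them among the 53, 49 rather than 74 were called higher, and 18 rather than 19 shared genes passed the interaction. Depth limits the genes with few reads most, since several of the largest differences rest on fewer than 60 counts per library.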
